A study of Mus musculus with 60 samples.

Results

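Saa3, Lcn2, Ptx3, C3, Cfb, C1qa, C1qb, C3ar1 and C5ar1 are 9 acute phase and complement genes of the mouse that were followed across every treatment and genotype group of an array study of high-density lipoprotein (HDL). They were chosen by symbol, and all probes annotated to a symbol were used. Of the 9 genes, 8 had a probe, among 19057 genes with one on the array. Ptx3 had 2 probes and the other 7 had 1 each, which makes 9 probes in all, and C3 was not analysed here.

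Acute phase proteins are secreted proteins whose production rises with infection and injury. Serum amyloid A, lipocalin-2 and the pentraxins belong to them, and macrophages make some of them when their Toll-like receptors, which sense microbial DNA and lipopeptides, are engaged. Complement is a cascade of plasma proteins that marks microbes and dead cells for uptake. The C1q molecule starts its classical pathway, C3 and factor B form the enzyme of its alternative pathway, and the fragments C3a and C5a act on the receptors C3aR1 and C5aR1. Macrophages are a main source of C1q in tissues.

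The study asked whether HDL, the lipoprotein that takes up cholesterol from cells, acts on inflammatory genes of macrophages through ATF3, a transcription factor that is induced by stress. It holds 60 arrays in 20 groups of 3, all labelled C57BL/6. The first experiment used WT bone marrow-derived macrophages. They received HDL at 2 mg/ml for 6 h and then CpG, DNA that stimulates the receptor TLR9, at 100 nM for 4 h, or either alone, or neither (control). The second used macrophages labelled ATF3-/- and WT macrophages. Each had the same 4 treatments, P3C, a lipopeptide that stimulates TLR2, at 50 ng/ml for 4 h, and HDL followed by P3C. Marrow came from mice aged 6 to 8 weeks and was cultured for 6 d in M-CSF at 40 ng/ml, and the stimulation period is given as 10 h for all macrophage groups. The third experiment used carotid arteries of male mice of about 12 weeks whose artery had been injured electrically. The mice were labelled ATF3-/- or WT, and each label was given HDL (20 mg/kg) or PBS at 3 h from injury. For arteries the labels give 12 h as the stimulation period.

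The growth protocol describes only marrow of WT mice, and the origin of the ATF3-/- marrow, the allele and the number of animals are not described. The Atf3 probe was brighter on the arrays labelled ATF3-/-, at 11.65 to 13.38 against 10.61 to 12.2 on WT arrays of the second experiment (log2 signal), and where this probe lies in the gene is not given. The genotype is therefore called a label throughout. Whether the arrays of a group came from separate cultures or animals is not stated, so p-values measure the spread between arrays, which may be technical. In these bulk samples fewer cells of a type cannot be told apart from less RNA per cell. Macrophage arrays detected 26.4% to 33.8% of the 45281 probes and artery arrays 20.5% to 34%.

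The macrophage label was borne out by 6 of 6 macrophage markers with a probe, which were detected in all macrophage groups. Their summed log2 signal was 15.29 to 15.72 on arrays labelled ATF3-/- and 15.31 to 15.73 on WT arrays of the second experiment. No marker of liver, the main organ of the acute phase, and none of T cells, dendritic cells, fat or skeletal muscle was detected there. Of 9 neutrophil markers, Ngp, Elane, Mpo, Mmp8 and Retnlg were detected on 0 of 36 arrays there, while S100a8 was detected on 33, S100a9 on 17, Camp on 16 and Ltf on 6. Neutrophils store lipocalin-2, and the neutrophil sums are given by treatment beside the Lcn2 results. In the first experiment 5 of 6 fibroblast markers and 3 of 5 smooth muscle markers were detected in each group. Dcn had a mean log2 signal of 9.63 and Acta2 of 12.34 there, each detected on 12 of 12 arrays. Their part in the results of the first experiment was not tested.

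The sequences before the start of the 3 secreted acute phase members are shown because these genes had the largest or the most opposed responses below. They come from RefSeq on build GRCm38.p6, run 5′ to 3′ on the strand of the gene and hold 250 bases before and 50 bases after its start. Saa3 lies at chr7:46715627-46715926 on the minus strand, Lcn2 at chr2:32387690-32387989 on the minus strand and Ptx3 at chr3:66219637-66219936 on the plus strand. Capitals mark matches to motifs searched on both strands.
Saa3: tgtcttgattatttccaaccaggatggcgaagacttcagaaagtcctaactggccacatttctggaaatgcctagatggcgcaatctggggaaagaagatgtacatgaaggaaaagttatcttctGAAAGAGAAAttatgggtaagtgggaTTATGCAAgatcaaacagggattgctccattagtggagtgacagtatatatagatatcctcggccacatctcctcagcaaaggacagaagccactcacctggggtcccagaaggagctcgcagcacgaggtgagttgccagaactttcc
Lcn2: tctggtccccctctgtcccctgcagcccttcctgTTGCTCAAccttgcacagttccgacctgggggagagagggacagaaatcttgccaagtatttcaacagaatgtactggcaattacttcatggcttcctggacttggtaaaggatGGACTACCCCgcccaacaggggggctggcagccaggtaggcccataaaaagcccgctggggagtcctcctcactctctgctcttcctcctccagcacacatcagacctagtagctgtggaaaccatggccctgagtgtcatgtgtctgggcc
Ptx3: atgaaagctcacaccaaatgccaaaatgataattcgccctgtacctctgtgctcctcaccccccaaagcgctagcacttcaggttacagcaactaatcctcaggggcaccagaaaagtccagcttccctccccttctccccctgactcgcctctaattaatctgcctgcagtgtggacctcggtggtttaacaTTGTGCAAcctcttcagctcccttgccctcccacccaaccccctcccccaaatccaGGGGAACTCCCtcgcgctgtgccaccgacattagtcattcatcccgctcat

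In Saa3 the capitals are an IRF motif (GAAA, any 2 bases, GAAA) at -125 to -116 from the start and a C/EBP motif (TTGCNNAA) on the other strand at -99 to -92. In Lcn2 they are a C/EBP motif at -216 to -209 and an NF-kB motif (GGG, any 5 bases, CC) on the other strand at -102 to -93. In Ptx3 they are a C/EBP motif on the other strand at -57 to -50 and overlapping NF-kB matches from -1 to 10, on both strands from 1 to 10. Of 32851 mouse promoters of this length, 50.8% hold the NF-kB motif, 10.8% the C/EBP motif and 3.44% the IRF motif. The AP-1 motif TGANTCA, held by 7.81% of them, the CRE motif TGACGTCA, held by 1.79%, and the TATA box TATAAA, held by 13.6%, were not matched in these 3 windows. Of the 9 members 7 had a promoter entry. A match is a description of the letters and no sign that a factor was bound.

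In the first experiment CpG raised the acute phase members Saa3, Lcn2 and Ptx3 and changed none of the C1q chains or receptors past the threshold. Saa3, a serum amyloid A made by macrophages and other cells outside the liver, had log2 signals of 13.33, 13.50 and 13.43 with CpG and 7.23, 7.21 and 7.59 in control cells. The CpG arrays were all far above the control arrays, a rise of 6.08 ± 0.16 on the log2 scale (SE, n = 3 each), or 67.5-fold (limma with Benjamini-Hochberg adjustment over all probes tested, adjusted p = 7.46e-10). Lcn2, whose protein withholds iron from bacteria by binding their siderophores, stood at 9.96, 9.73 and 9.54 with CpG and at 5.03, 5.53 and 4.63 in control cells, where it was detected on 2 of 3 arrays. These groups did not overlap either, and the rise was 4.68 ± 0.29, or 25.6-fold (adjusted p = 3.36e-07). The summed neutrophil markers lay at 9.07 to 9.68 with CpG and 8 to 9.24 in control cells, and their part in the Lcn2 result was not tested.

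Ptx3, the long pentraxin that binds C1q and microbes, was near the limit of detection, with 5.65, 5.28 and 5.63 with CpG against 4.56, 4.39 and 4.75 in control cells on its brighter probe. The groups were apart and the rise of 0.95 ± 0.21 passed (1.94-fold, adjusted p = 0.00557), while the dimmer Ptx3 probe gave 0.75 ± 0.29 (adjusted p = 0.0727). The Ptx3 call depends on the processing: the rise was 0.29 (adjusted p = 0.0545) without background correction, 0.29 (adjusted p = 0.0571) in the deposited matrix values and 0.76 (adjusted p = 0.055) with arrays scaled to a common median. Cfb, which encodes factor B, had 5.32, 5.05 and 6.88 with CpG and 4.28, 4.31 and 5.01 in control cells. The Cfb groups were apart by a narrow margin, and the difference of 1.22 ± 0.45 did not pass (adjusted p = 0.0623). With the chip, which carries 6 arrays, as a fixed effect the Cfb difference was the same size and had an adjusted p of 0.00392, and it passed without CpG replicate 2 (1.57, adjusted p = 0.0362) and without control replicate 3 (1.45, adjusted p = 0.0432).

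For C1qa, C1qb, C3ar1 and C5ar1 the CpG and control groups overlapped. The differences were 0.40 ± 0.66, -0.12 ± 0.27, 0.08 ± 0.30 and 0.45 ± 0.59, and the 95% interval for C1qa ran from -1.03 to 1.84. C1qa, an A chain of C1q, had a wide spread in control cells, at 9.40, 7.28 and 10.57. In all, 3 of 8 members passed, all higher, where 28% of the 15917 probes tested passed and 12.2% passed as higher, and the median of the members was 0.70 against -0.04 over all probes. Within the 2 chips that held both groups the rises were 6.20 and 5.84 for Saa3, 4.57 and 4.91 for Lcn2 and 0.99 and 0.87 for Ptx3. Lcn2 moved by more than 1.5 times without background correction, to 3.04.

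**Figure D1:**
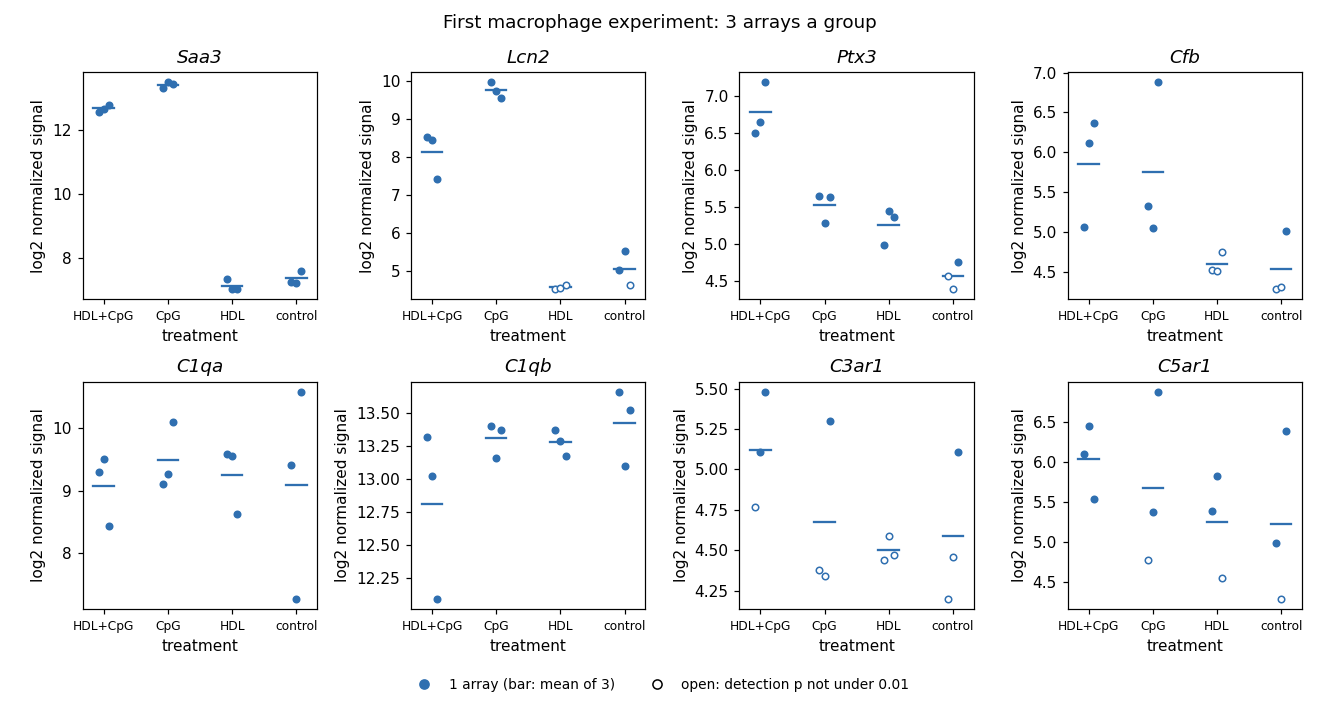
Log2 normalized signal (vertical axis) of the 8 members in the 4 treatment groups of the first experiment (horizontal axis); each point is 1 array, bars are means of 3, and open points were not detected. Saa3 and Lcn2 are higher with CpG than without, and HDL before CpG puts both lower and Ptx3 higher than CpG alone.

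HDL given before CpG lowered Saa3 and Lcn2 and raised Ptx3 in the first experiment, relative to CpG alone. Saa3 had 12.58, 12.67 and 12.78 with HDL and CpG against 13.33, 13.50 and 13.43 with CpG, so that the groups were apart by a fall of 0.74 ± 0.16 on the log2 scale, a 1.67-fold difference (limma, adjusted p = 0.0134). Lcn2 had 8.52, 8.44 and 7.42 with HDL and CpG against 9.96, 9.73 and 9.54 with CpG, and it was 3.07-fold lower (-1.62 ± 0.29, adjusted p = 0.00496). Ptx3 went the other way, with 6.49, 6.65 and 7.18 with HDL and CpG against 5.65, 5.28 and 5.63 with CpG. All HDL with CpG arrays exceeded all CpG arrays for Ptx3, by 1.25 ± 0.21 or 2.38-fold (adjusted p = 0.00341), and the dimmer probe gave 0.99 ± 0.29 (adjusted p = 0.0632).

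The 3 members that passed stand against 6.99% of all probes tested, 3.68% higher and 3.32% lower, and the other 5 had overlapping groups, with differences from -0.50 for C1qb to 0.44 for C3ar1. On the 1 chip that held both groups the values were -0.70 for Saa3, -1.61 for Lcn2 and 1.29 for Ptx3. The Saa3 call is the least firm: the difference was -0.51 (adjusted p = 0.263) under median scaling, -0.70 (adjusted p = 0.068) without CpG replicate 2, -0.69 (adjusted p = 0.0513) without HDL with CpG replicate 1 and -0.73 (adjusted p = 0.0556) without HDL with CpG replicate 2. The Ptx3 difference shrank to 0.59 without background correction and passed there.

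HDL alone changed no member past the threshold in the first experiment (0 of 8 by limma, 1 at an unadjusted p under 0.05, and 5.54% of all probes past the adjusted threshold). Saa3 was at 7.33, 7.01 and 7.02 with HDL and 7.23, 7.21 and 7.59 in control cells, overlapping groups (-0.22 ± 0.16). Ptx3 was at 4.98, 5.44 and 5.36 with HDL and 4.56, 4.39 and 4.75 in control cells, and its difference of 0.69 ± 0.21 did not pass (adjusted p = 0.0883). Lcn2 was not detected on any of the 3 HDL arrays. The difference between the HDL effects with and without CpG passed for 0 of 8 members (2 at an unadjusted p under 0.05, against 0.616% of all probes past the adjusted threshold), with -0.52 ± 0.22 for Saa3 and 0.56 ± 0.30 for Ptx3.

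In the second experiment both ligands raised Saa3 and Lcn2 in both labelled genotypes. Saa3 had 13.48, 14.21 and 14.37 with CpG and 8.15, 7.59 and 8.42 in control cells labelled ATF3-/-, a rise of 5.97 ± 0.37 (62.5-fold, adjusted p = 3.27e-14). In WT cells it had 14.04, 13.85 and 13.58 with CpG and 7.55, 9.36 and 8.37 in control cells, a rise of 5.39 ± 0.37 (42-fold, adjusted p = 3.17e-13). The WT control arrays were widely spread, and all ligand arrays lay far above them.

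With P3C, Saa3 had 13.79, 14.07 and 13.77 in cells labelled ATF3-/- and 13.60, 13.79 and 13.73 in WT cells. These are rises of 5.82 ± 0.37 and 5.28 ± 0.37 over the controls of each label (adjusted p = 6.66e-14 and 5.47e-13). CpG and P3C therefore brought Saa3 to levels whose groups overlapped, with differences of 0.14 ± 0.37 in cells labelled ATF3-/- and 0.11 ± 0.37 in WT cells.

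Lcn2 rose further in cells labelled ATF3-/- than in WT cells. In the labelled ATF3-/- cells it had 11.51, 11.06 and 11.07 with CpG, 10.54, 10.37 and 10.66 with P3C and 4.37, 4.45 and 4.42 in control cells, where no array detected it. Its rise there is a lower bound, at least 63.7-fold with CpG and at least 39.4-fold with P3C (adjusted p = 1.05e-19 and 1.17e-18), taking the control level on each array as the dimmest signal of any detected probe where that was higher. In WT cells it had 9.49, 10.31 and 10.01 with CpG, 9.13, 9.58 and 9.59 with P3C and 4.59, 4.81 and 5.08 in control cells, detected on 1 of these 3 control arrays. The WT rises were 5.11 ± 0.23 with CpG (34.5-fold, adjusted p = 2.8e-17) and 4.6 ± 0.23 with P3C (24.3-fold, adjusted p = 3.88e-16). The summed neutrophil markers were also higher with ligand, at 8.63 to 9.22 with CpG, 8.26 to 8.59 with P3C and 7.73 to 7.81 in control cells labelled ATF3-/-, and at 9.08 to 9.29 with CpG, 8.91 to 9.23 with P3C and 8.18 to 8.41 in WT control cells. Their part in the Lcn2 responses was not tested.

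Cfb responded to both ligands in cells labelled ATF3-/-. It had 6.58, 7.30 and 7.97 with CpG, 6.60, 6.65 and 6.99 with P3C and 5.11, 5.20 and 5.43 in control cells. Ligand and control groups did not overlap, and the rises were 2.03 ± 0.32 with CpG (4.1-fold, adjusted p = 5.8e-06) and 1.5 ± 0.32 with P3C (2.83-fold, adjusted p = 0.000359). In WT cells Cfb had 6.47, 5.40 and 5.21 with CpG, 4.93, 5.59 and 5.10 with P3C and 4.40, 4.56 and 4.44 in control cells, where it was not detected. The WT rise with CpG was at least 1.51-fold (1.22 ± 0.32 as fitted, adjusted p = 0.00262), and that with P3C did not pass (0.74 ± 0.32, adjusted p = 0.0649), though it did with the chip as a fixed effect (0.90, adjusted p = 0.0156). Without background correction the Cfb rises were 0.43 in WT cells with CpG, and 0.93 with CpG and 0.60 with P3C in cells labelled ATF3-/-.

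Over the 8 members, 3 rose with CpG and 3 with P3C in cells labelled ATF3-/-, where 46.4% and 44% of the 16487 probes tested passed, 20.5% and 20.2% as higher. In WT cells 3 rose with CpG and 2 with P3C, where 45.7% and 44.3% of the probes passed, 20.3% and 20.5% as higher. None fell. On the brighter probe Ptx3 was at most 0.59 ± 0.27 above control with CpG in WT cells (adjusted p = 0.0696), and it passed there without CpG replicate 3 (0.88, adjusted p = 0.0104). No array with a ligand alone and no control array of the second experiment detected the other Ptx3 probe, so nothing is drawn from it here. C1qa and C1qb did not pass with either ligand: the CpG differences were -0.13 ± 0.32 and 0.11 ± 0.18 in cells labelled ATF3-/- and -0.50 ± 0.32 and -0.31 ± 0.18 in WT cells, and C1qb passed there without CpG replicate 2 (-0.46, adjusted p = 0.0458) or 3 (-0.46, adjusted p = 0.0457).

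The receptor genes C3ar1 and C5ar1 also missed the threshold with both ligands. C3ar1 was detected on 0 to 3 of the 3 arrays in each group, and its largest ligand difference was -0.59 ± 0.30 with P3C in cells labelled ATF3-/- (adjusted p = 0.11), which passed without P3C replicate 1 (-0.84, adjusted p = 0.0367). With CpG there it passed without CpG replicate 3 (-0.79, adjusted p = 0.0396). C5ar1 had 7.63, 7.65 and 7.51 with CpG against 6.78, 6.56 and 7.08 in control cells labelled ATF3-/-, groups that were apart by 0.79 ± 0.35 without passing (adjusted p = 0.0648). No member passed between CpG and P3C (0 of 8 by limma in either label, 1 in each at an unadjusted p under 0.05, against 1.19% of all probes past the adjusted threshold in cells labelled ATF3-/- and 0.497% in WT cells). The largest such difference was Lcn2 in cells labelled ATF3-/-, at 0.69 ± 0.23 (adjusted p = 0.168).

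**Figure D2:**
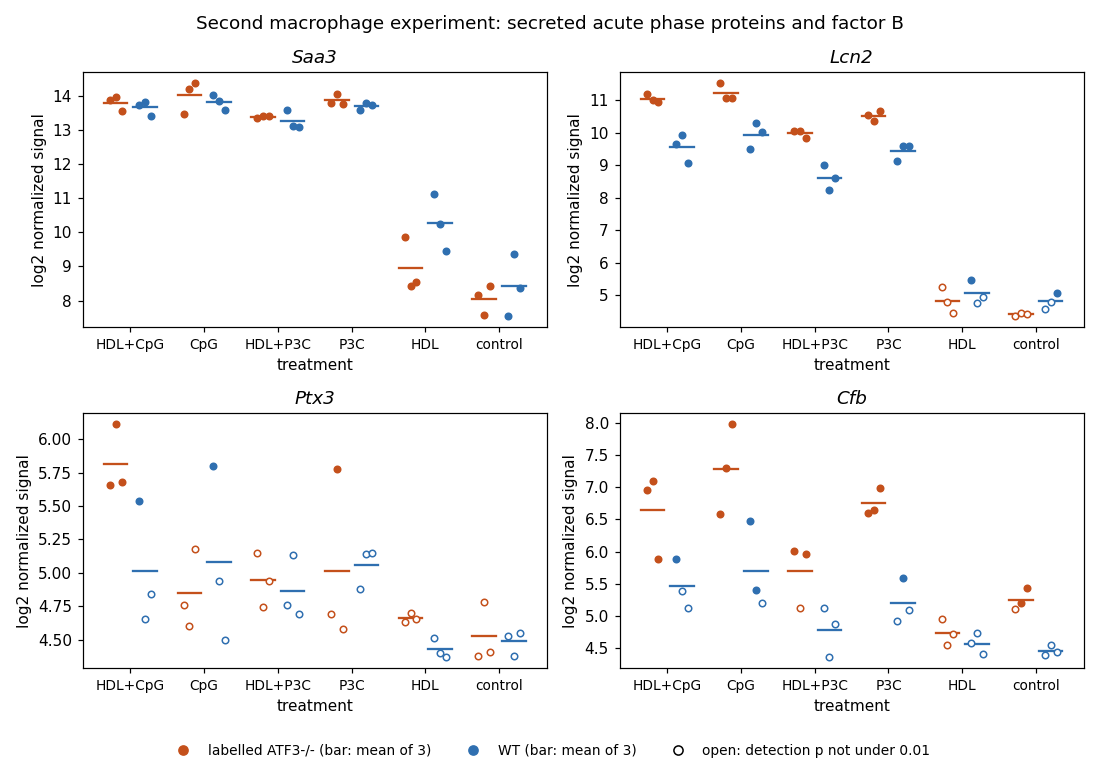
Log2 normalized signal (vertical axis) of Saa3, Lcn2, Ptx3 and Cfb in the 6 treatments of the second experiment (horizontal axis), with orange for arrays labelled ATF3-/- and blue for WT; points are arrays, bars are means of 3, and open points were not detected. Lcn2 and Cfb stand higher in orange with each ligand, while Saa3 reaches overlapping levels in both labels.

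HDL alone raised Saa3 in WT cells of the second experiment. The gene had 11.13, 10.24 and 9.44 with HDL and 7.55, 9.36 and 8.37 in control cells, so the lowest HDL array was only just above the highest control array. The rise was 1.84 ± 0.37, or 3.58-fold (limma, adjusted p = 0.00062), and it passed when each array was left out in turn, with values from 1.40 to 2.31. On the 1 chip that held both groups it was 3.58 on the log2 scale. In cells labelled ATF3-/- Saa3 had 9.87, 8.44 and 8.53 with HDL and 8.15, 7.59 and 8.42 in control cells, and the difference of 0.89 ± 0.37 did not pass (adjusted p = 0.0944). The difference between the labels in this HDL effect did not pass its own test (-0.95 ± 0.52, adjusted p = 0.829).

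Saa3 was the 1 member of 8 to pass with HDL alone in WT cells, against 11.7% of all probes, 6.32% as higher, and 0 of 8 passed in cells labelled ATF3-/- by limma (2 at an unadjusted p under 0.05), against 18.8% of all probes. In cells labelled ATF3-/- every HDL array lay below every control array for Cfb, C1qa, C1qb and C3ar1. Those differences were -0.50 ± 0.32, -0.55 ± 0.32, -0.32 ± 0.18 and -0.77 ± 0.30, with adjusted p from 0.0703 for C3ar1 to 0.334 for Cfb. Cfb and C3ar1 were detected on 0 of these 3 HDL arrays, so their HDL level was not above background. With HDL, Saa3 lay wholly above control in these cells, at 8.44 to 9.87 against 7.59 to 8.42. So did Lcn2, at 4.46 to 5.25 against 4.37 to 4.45, though no array of either group detected it. The groups were thus apart for 6 of 8 members, and the share of all probes with groups apart was not counted. In a model of the HDL and control groups of this label alone, Cfb, C1qa and C3ar1 passed, with adjusted p of 0.0398, 0.0256 and 0.00509. The 18.8% belongs to the model of all groups, and the share of all probes that passed in the smaller model is not given here. In WT cells C1qa was also lower without overlap, at 9.13 to 9.81 with HDL and 9.99 to 10.34 in control cells. So was C5ar1 in WT cells, at 5.87 to 6.09 against 6.15 to 6.98. In a model of the WT HDL and control groups alone both passed by limma, at -0.69 (adjusted p = 0.0308) and -0.73 (adjusted p = 0.0486). The share of all probes that passed in that model is not given here either.

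In the first experiment Saa3 did not pass with HDL, and the 2 experiments were not tested against each other, since they were normalized separately. On the log2 scale the HDL difference of Saa3 was -0.22 ± 0.16 in the first experiment and 1.84 ± 0.37 in WT cells of the second. The same dose and time are given for both.

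With a ligand present, HDL did not change Saa3 past the threshold. In WT cells Saa3 had 13.75, 13.83 and 13.43 with HDL and CpG against 14.04, 13.85 and 13.58 with CpG, and 13.59, 13.11 and 13.09 with HDL and P3C against 13.60, 13.79 and 13.73 with P3C. These differences were -0.15 ± 0.37 and -0.45 ± 0.37 and did not pass. The HDL effect with CpG minus that without was -1.99 ± 0.52 (adjusted p = 0.0276), and with P3C it was -2.29 ± 0.52 (adjusted p = 0.0101). In cells labelled ATF3-/- the same differences were -1.10 ± 0.52 and -1.37 ± 0.52 and did not pass (adjusted p = 0.328 and 0.161).

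The test with P3C passed with each array left out in turn and was lost under median scaling (-2.06, adjusted p = 0.112). That with CpG is weaker: it was lost under median scaling (-1.84, adjusted p = 0.218), with all probes tested (-1.99, adjusted p = 0.0756), with only those groups in the model (-1.99, adjusted p = 0.2), and without WT HDL replicate 1 (-1.56, adjusted p = 0.0989) or 2 (-2.01, adjusted p = 0.0588), control replicate 1 (-1.55, adjusted p = 0.1) or 3 (-1.96, adjusted p = 0.0652), CpG replicate 1 (-1.88, adjusted p = 0.0542) or HDL with CpG replicate 3 (-1.87, adjusted p = 0.0754). With the chip as a fixed effect the Saa3 values were -2.39 (adjusted p = 0.0311) with CpG and -2.52 (adjusted p = 0.0121) with P3C. No chip held all 4 groups.

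HDL before ligand lowered Lcn2 in WT cells with P3C. Lcn2 had 9.01, 8.24 and 8.60 with HDL and P3C against 9.13, 9.58 and 9.59 with P3C, groups that were apart by little, with a difference of -0.82 ± 0.23 (1.76-fold lower, adjusted p = 0.0146). Within the 2 chips that held both groups it was -0.35 and -1.35. The call was lost under median scaling (-0.78, adjusted p = 0.176) and without HDL with P3C replicate 2 (-0.63, adjusted p = 0.115), P3C replicate 2 (-0.74, adjusted p = 0.0651) or P3C replicate 3 (-0.74, adjusted p = 0.0678). With CpG in WT cells Lcn2 had 9.64, 9.93 and 9.08 after HDL against 9.49, 10.31 and 10.01 without, overlapping groups (-0.39 ± 0.23, adjusted p = 0.275), where the first experiment gave a fall of 1.62 ± 0.29.

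In cells labelled ATF3-/- the Lcn2 differences did not pass. The gene had 11.20, 11.00 and 10.94 with HDL and CpG against 11.51, 11.06 and 11.07 with CpG (-0.17 ± 0.23). It had 10.06, 10.05 and 9.82 with HDL and P3C against 10.54, 10.37 and 10.66 with P3C, groups that did not overlap (-0.54 ± 0.23, adjusted p = 0.123). The differences between the labels in the HDL effect on Lcn2 did not pass their own tests, at 0.22 ± 0.33 with CpG and 0.27 ± 0.33 with P3C (adjusted p = 0.853 and 0.936).

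Ptx3 rose with HDL before CpG in cells labelled ATF3-/-, the same direction as in the first experiment. On the brighter probe it had 5.66, 6.11 and 5.68 with HDL and CpG, all 3 detected, against 4.76, 4.60 and 5.18 with CpG, none detected. That is at least 1.28-fold (0.97 ± 0.27 as fitted, adjusted p = 0.0106), and the other probe, at least 1.4-fold higher, was tested only because these 3 arrays detected it and adds no support. The brighter probe too was detected on 3 arrays beyond these. In WT cells it had 5.54, 4.65 and 4.84 with HDL and CpG against 5.80, 4.94 and 4.50 with CpG, overlapping groups (-0.07 ± 0.27). The difference between labels in this HDL effect was 1.04 ± 0.38 on the brighter probe and did not pass (adjusted p = 0.327). The Ptx3 call was lost with the chip as a fixed effect (0.80, adjusted p = 0.0768), without CpG replicate 2 (0.85, adjusted p = 0.0555) and without HDL with CpG replicate 2 (0.82, adjusted p = 0.0706).

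Cfb fell with HDL before P3C in cells labelled ATF3-/-, at 6.01, 5.12 and 5.97 with HDL and P3C against 6.60, 6.65 and 6.99 with P3C. The groups were apart, by -1.05 ± 0.32 or 2.07-fold (adjusted p = 0.0261). The call was lost under median scaling (-0.88, adjusted p = 0.104), with all probes tested (-1.05, adjusted p = 0.0718), without HDL with P3C replicate 2 (-0.76, adjusted p = 0.172) and without P3C replicate 3 (-0.93, adjusted p = 0.114), and the value was -0.45 without background correction. Within the 2 chips that held both groups it was -1.51 and -1.03.

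Over the 8 members, HDL before CpG changed 1 in cells labelled ATF3-/- and 0 in WT cells (0 at an unadjusted p under 0.05), against 15.7% and 17.6% of all probes. The 1 rose, as 8.56% of all probes did. HDL before P3C lowered 1 in each label, where 14.7% and 14.9% of all probes passed, 6.98% and 7.1% as lower. The test of the HDL effects with against without ligand passed for 0 of 8 members with CpG and 0 of 8 with P3C in cells labelled ATF3-/- (2 and 4 at an unadjusted p under 0.05, against 3.61% and 3.5% of all probes), and for Saa3 alone of the 8 in WT cells (3.23% and 2.86% of all probes, 1.77% and 1.41% as lower). C1qa in WT cells was the nearest to passing of the rest, at 9.75, 9.04 and 8.47 with HDL and P3C against 9.80, 10.37 and 9.83 with P3C (-0.91 ± 0.32, adjusted p = 0.0518), and it passed without HDL with P3C replicate 1 (-1.24, adjusted p = 0.0116). C5ar1 in cells labelled ATF3-/- had 8.00, 7.96 and 7.85 with HDL and P3C against 6.34, 7.91 and 6.70 with P3C (0.95 ± 0.35, adjusted p = 0.066), and passed without P3C replicate 2 (1.41, adjusted p = 0.00545).

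**Figure D3:**
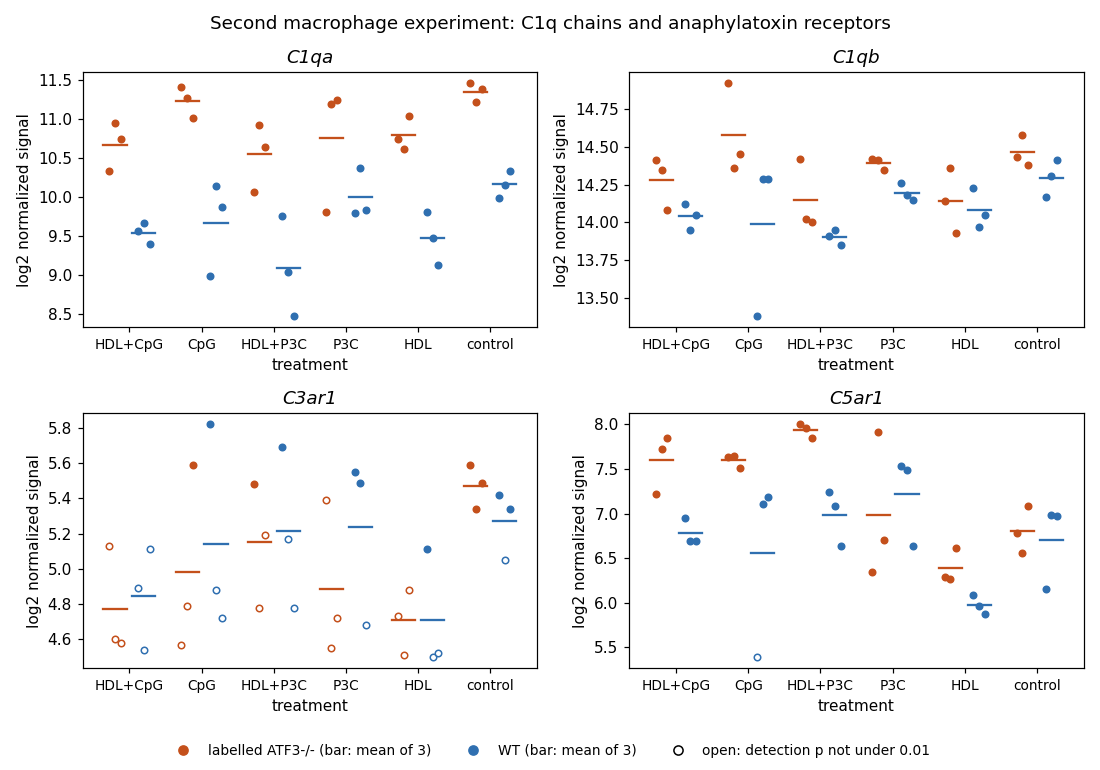
Log2 normalized signal (vertical axis) of the C1q chain genes and the receptor genes C3ar1 and C5ar1 in the 6 treatments of the second experiment (horizontal axis), with orange for arrays labelled ATF3-/- and blue for WT; points are arrays, bars are means of 3, and open points were not detected. The C1qa points are higher in orange in each treatment, with 1 P3C array labelled ATF3-/- among the WT points, and many C3ar1 points are open.

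Between the genotype labels, C1qa, Lcn2 and Cfb were higher on arrays labelled ATF3-/- in several treatments. The genes are given here with the markers of other cells that also differed between the labels. For fibroblasts, the summed signal of 6 markers lay at 9.07 to 10.06 on arrays labelled ATF3-/- and 7.77 to 8.57 on WT arrays. Of those markers Col3a1, Pdgfra and Lum were detected on 0 of 36 arrays, and Dcn on all 36. The smooth muscle sum lay at 9.41 to 10.82 against 8.6 to 9.53, with Acta2 detected on all arrays and Myh11, Tagln and Cnn1 on none. The neutrophil sum was lower on arrays labelled ATF3-/- without overlap in 5 of the 6 treatments, such as 7.73 to 7.81 against 8.18 to 8.41 in control cells. The B cell sum of 2 markers, of which Cd79b was detected on 24 of 36 arrays and Ms4a1 on 0, was higher without overlap in 4 of 6, such as 6.96 to 7.26 against 6.43 to 6.65 in control cells. The part of these markers in the results on the members was not tested.

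C1qa was the member that differed in most treatments. Without ligand or HDL it had 11.46, 11.22 and 11.39 in cells labelled ATF3-/- and 9.99, 10.16 and 10.34 in WT cells, groups well apart, with a difference of 1.19 ± 0.32 (2.29-fold, limma, adjusted p = 0.0114). With CpG it had 11.41, 11.27 and 11.01 in cells labelled ATF3-/- and 8.98, 10.14 and 9.87 in WT cells (1.57 ± 0.32, 2.96-fold, adjusted p = 0.000677). With HDL it had 10.75, 10.62 and 11.04 against 9.81, 9.47 and 9.13 in WT cells (1.33 ± 0.32, 2.52-fold, adjusted p = 0.00569). In each of these treatments the labelled ATF3-/- arrays were all above the WT arrays.

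After HDL with CpG, C1qa had 10.33, 10.95 and 10.74 in cells labelled ATF3-/- against 9.56, 9.66 and 9.39 in WT cells (1.14 ± 0.32, adjusted p = 0.0174), and after HDL with P3C 10.07, 10.93 and 10.64 against 9.75, 9.04 and 8.47 (1.46 ± 0.32, adjusted p = 0.00183). With P3C it had 9.81, 11.20 and 11.25 against 9.80, 10.37 and 9.83, and the groups overlapped because of replicate 1 (0.76 ± 0.32, adjusted p = 0.148). Without that array the difference passed (1.23, adjusted p = 0.00868). C1qb, the partner chain, passed in 1 of the 6 treatments, CpG, where it had 14.92, 14.36 and 14.45 in cells labelled ATF3-/- and 13.38, 14.29 and 14.29 in WT cells. That difference of 0.59 ± 0.18 (adjusted p = 0.0163) was 0.29 (adjusted p = 0.238) without WT CpG replicate 1 and 0.42 (adjusted p = 0.128) without the labelled ATF3-/- CpG replicate 1. In the other 5 treatments the C1qb differences ran from 0.06 to 0.25.

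The C1qa calls were lost under median scaling without treatment (0.98, adjusted p = 0.127), with HDL (1.09, adjusted p = 0.0888) and with HDL and CpG (1.0, adjusted p = 0.122). With the chip as a fixed effect the call with HDL was lost (1.35, adjusted p = 0.0566), and with all probes tested that with HDL and CpG (1.14, adjusted p = 0.0513). The call without treatment was lost without WT control replicate 1 (1.11, adjusted p = 0.0561). That for HDL with CpG was lost without the labelled ATF3-/- replicate 2 (1.0, adjusted p = 0.0944) or 3 (1.11, adjusted p = 0.0582) or WT replicate 3 (1.07, adjusted p = 0.0745). Within chips that held both labels the C1qa difference was 1.35 and 1.23 without treatment, 1.27 with CpG, 1.40 with HDL and CpG, and 0.32 and 2.17 with HDL and P3C.

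Lcn2 differed between the labels in all 4 treatments that held a ligand. From the values above, the difference was 1.28 ± 0.23 with CpG (2.42-fold, adjusted p = 0.000192), 1.09 ± 0.23 with P3C (2.13-fold, adjusted p = 0.00177), 1.5 ± 0.23 with HDL and CpG (2.83-fold, adjusted p = 3.13e-05) and 1.36 ± 0.23 with HDL and P3C (2.57-fold, adjusted p = 0.000105). In each of these treatments the 3 labelled ATF3-/- arrays exceeded the 3 WT arrays. In control cells, by contrast, the 3 labelled ATF3-/- arrays were lower than the WT arrays and below detection (-0.42 ± 0.23, adjusted p = 0.332), and with HDL they had 5.25, 4.79 and 4.46 against 5.48, 4.77 and 4.94, with overlap. The neutrophil marker sum was lower on arrays labelled ATF3-/- without overlap in 3 of these 4 treatments, at 8.26 to 8.59 against 8.91 to 9.23 with P3C, 8.81 to 8.93 against 9.44 to 9.57 with HDL and CpG, and 8.38 to 8.53 against 9.14 to 9.53 with HDL and P3C, and the ranges overlapped with CpG.

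The response of Lcn2 therefore differed between the labels, by 1.69 ± 0.33 for CpG (adjusted p = 0.00288) and 1.51 ± 0.33 for P3C (adjusted p = 0.0105) on the log2 scale. Both values rest in part on control cells labelled ATF3-/- in which Lcn2 was not above background. Both passed with each array left out in turn and with the chip as a fixed effect (1.81, adjusted p = 0.0176, and 1.72, adjusted p = 0.0477), and both were lost under median scaling (1.66, adjusted p = 0.142, and 1.31, adjusted p = 0.417). Lcn2 was the 1 member of 8 to pass in either test, against 1.95% of all probes for CpG and 1.51% for P3C, 0.685% and 0.528% as higher. Within chips the Lcn2 label difference was 1.20 with CpG, 1.36 with HDL and CpG, and 1.05 and 1.23 with HDL and P3C, and with P3C it was lost under median scaling (0.83, adjusted p = 0.116).

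Cfb was higher in cells labelled ATF3-/- with CpG (1.59 ± 0.32, 3.01-fold, adjusted p = 0.0007), with P3C (1.54 ± 0.32, 2.91-fold, adjusted p = 0.00154) and with HDL and CpG (1.18 ± 0.32, 2.26-fold, adjusted p = 0.0159). It was detected on 2, 1 and 1 of the 3 WT arrays in these treatments, so these folds rest on WT levels near the detection limit. After HDL with CpG it had 6.96, 7.09 and 5.88 in cells labelled ATF3-/- and 5.88, 5.39 and 5.13 in WT cells, so that the groups touch at 5.88. In control cells the difference of 0.78 ± 0.32 did not pass (adjusted p = 0.144), although all 3 labelled ATF3-/- arrays were above the WT arrays. The call for HDL with CpG was lost under median scaling (0.94, adjusted p = 0.0735), with the chip as a fixed effect (0.96, adjusted p = 0.0636), without the labelled ATF3-/- replicate 1 (1.02, adjusted p = 0.081) or 2 (0.96, adjusted p = 0.115) and without WT replicate 2 (1.14, adjusted p = 0.0571) or 3 (1.01, adjusted p = 0.0995). Without background correction the Cfb values were 0.77, 0.61 and 0.50 for CpG, P3C and HDL with CpG.

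Saa3 was lower in cells labelled ATF3-/- in 1 treatment, HDL alone, at 9.87, 8.44 and 8.53 against 11.13, 10.24 and 9.44 in WT cells. The groups overlap at their edges, and the difference of -1.32 ± 0.37 (2.5-fold, adjusted p = 0.0198) was lost without the labelled ATF3-/- HDL replicate 2 (-1.07, adjusted p = 0.122) or 3 (-1.11, adjusted p = 0.126) and without WT HDL replicate 1 (-0.89, adjusted p = 0.206) or 2 (-1.34, adjusted p = 0.0546). No chip held both HDL groups. In the other 5 treatments the Saa3 difference lay between -0.38 and 0.20.

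C5ar1, the receptor for C5a on myeloid cells, passed in the CpG groups, with 7.63, 7.65 and 7.51 in cells labelled ATF3-/- and 5.39, 7.11 and 7.18 in WT cells. The difference of 1.04 ± 0.35 (adjusted p = 0.0354) came down to 0.45 (adjusted p = 0.402) without WT CpG replicate 1, the dimmest array, and was 0.52 on the 1 chip that held both labels. It was also lost without each of the 3 labelled ATF3-/- CpG arrays, with values from 1.01 to 1.08 and adjusted p from 0.0615 to 0.0834, with the chip as a fixed effect (0.82, adjusted p = 0.121), under median scaling (0.79, adjusted p = 0.238) and with all probes tested (1.04, adjusted p = 0.0945). With HDL and P3C, C5ar1 had 7.85 to 8 in cells labelled ATF3-/- and 6.63 to 7.24 in WT cells. With HDL and CpG it had 7.22 to 7.85 against 6.69 to 6.95. Both pairs of groups were apart and neither difference passed. By limma both passed in models of those groups alone (0.95, adjusted p = 0.00862, and 0.82, adjusted p = 0.0293). The share of all probes that passed in those models is not given here. Within chips the difference with HDL and P3C was 0.76 and 1.22. C3ar1 did not pass in any of the 6 treatments, with differences from -0.35 to 0.20. Ptx3 passed narrowly with HDL and CpG on the brighter probe (0.81 ± 0.27, adjusted p = 0.0499) and kept that call in 2 of 14 alternatives.

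In all, the members that were higher in cells labelled ATF3-/- numbered 1 of 8 in control cells, 5 with CpG, 2 with P3C, 1 with HDL, 4 with HDL and CpG and 2 with HDL and P3C. The share of all probes that passed in these comparisons was 10.7%, 19.2%, 10.1%, 8.18%, 10% and 12%, and the share that passed as higher was 5.26%, 8.4%, 4.74%, 3.82%, 4.66% and 5.61%. With HDL, 4.35% passed as lower, as Saa3 did. In a model of the 2 CpG groups alone none of the 5 CpG calls passed, with adjusted p from 0.0549 for C1qa to 0.402 for C1qb. The median difference of the members was 0.81 with CpG and 0.81 with HDL and CpG, against -0.02 and -0.01 over all probes. Under median scaling the median of all probes was lower in cells labelled ATF3-/-, by -0.15 in the CpG groups to -0.31 with HDL and P3C, and 23.6% of the calls in the CpG groups were higher, against 43.8% with quantile normalization. The label differences of the HDL effects passed for 0 of 8 members by limma, with 0, 1 and 1 at an unadjusted p under 0.05 for HDL alone, before CpG and before P3C, where 0.873%, 0.249% and 0.23% of all probes passed.

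**Figure D4:**
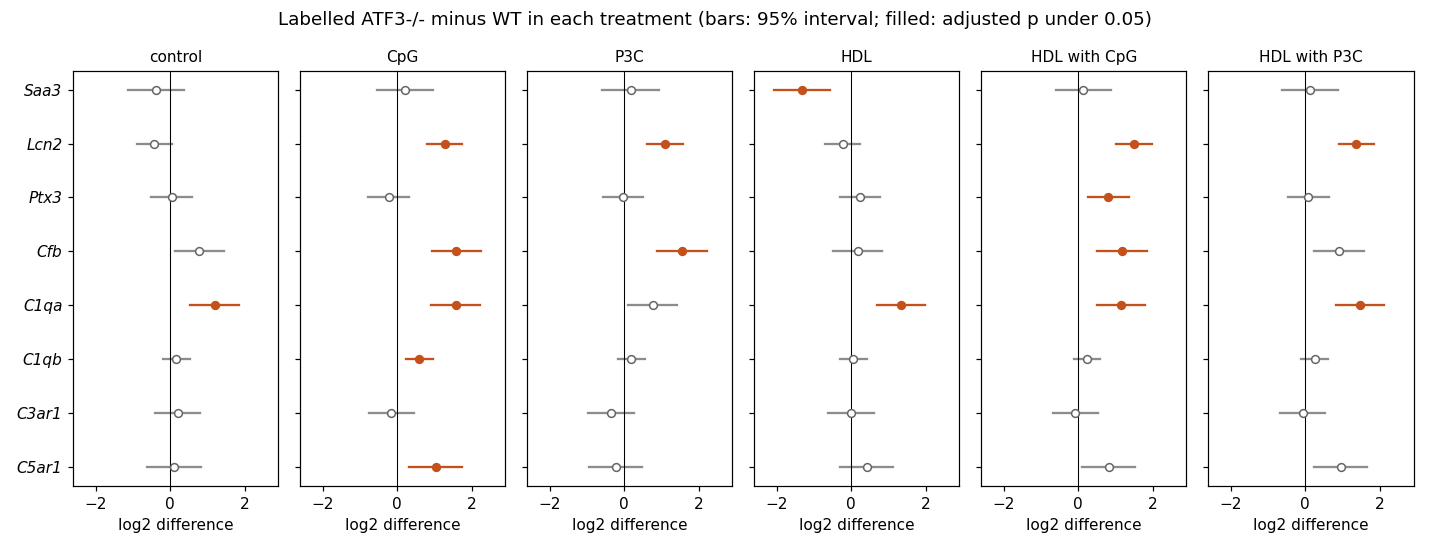
Log2 difference of cells labelled ATF3-/- minus WT cells (horizontal axes) for the 8 members (rows) in the 6 treatments of the second experiment (panels); lines are 95% intervals and filled points passed an adjusted p of 0.05. The filled points lie right of 0 except Saa3 with HDL, at -1.32.

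In the injured carotid artery no member passed in any comparison, and neither did any other probe. Before these values, 2 arrays stood against their labels. Erdr1 separates the labels in the second experiment, at 4.31 to 4.98 on 18 arrays labelled ATF3-/- and 10.83 to 12.04 on 18 WT arrays. In artery it was at 10.33 on HDL replicate 3 of the ATF3-/- label and at 4.48 on PBS replicate 3 of the WT label, the levels of the opposite label, while the other 10 artery arrays kept to theirs. A further 2 arrays, WT HDL replicates 1 and 3, had 20.5% and 24.5% of probes detected, the lowest of the series.

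Lcn2 was at 8.73, 9.25 and 9.83 with HDL and 10.98, 9.91 and 10.97 with PBS in arteries labelled ATF3-/-, and at 9.84, 10.84 and 8.45 with HDL and 11.41, 8.87 and 11.06 with PBS in WT arteries. The groups are apart in arteries labelled ATF3-/- (-1.35 ± 0.71) and overlap in WT (-0.74 ± 0.71, adjusted p = 0.508). Saa3 was at 9.36, 9.26 and 8.76 with HDL and 8.75, 9.23 and 9.58 with PBS in arteries labelled ATF3-/-, an overlap (-0.06 ± 0.28). In WT arteries it was at 9.46, 9.78 and 10.25 with HDL and 9.14, 9.35 and 9.35 with PBS, all HDL arrays above all PBS arrays, by 0.55 ± 0.28 (adjusted p = 0.251). WT HDL replicates 1 and 3 were the arrays of low signal. Before normalization the mean WT signal of Saa3 went the other way, at 580 with HDL and 892 with PBS, so the direction depends on the normalization.

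Ptx3 spread widely between WT arteries. It was at 4.38, 7.84 and 4.41 with HDL, detected on the 1 array that was not of low signal, and at 7.29, 5.93 and 10.08 with PBS. The difference of -2.22 ± 1.13 did not pass (adjusted p = 0.248) and its 95% interval ran from -4.70 to 0.25. In arteries labelled ATF3-/- Ptx3 was at 5.50, 7.17 and 8.31 with HDL and 8.63, 7.71 and 8.11 with PBS (-1.15 ± 1.13). Without the 2 arrays of low signal, which leaves 1 WT HDL array, the WT difference was 0.08. Without the 2 arrays that went against their label it was -1.07, so its size depends on which arrays are kept.

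C1qa was at 6.74, 5.28 and 7.14 with HDL and 4.34, 5.51 and 5.68 with PBS in WT arteries (1.21 ± 0.56, adjusted p = 0.224). This difference became 0.10 without the arrays of low signal, which leaves 1 WT HDL array. Cfb ran from 5.24 to 7.98 with HDL and from 6.34 to 6.65 with PBS in arteries labelled ATF3-/-, and from 5.71 to 8.52 and from 5.01 to 7.46 in WT arteries. C1qb ran from 7.79 to 10.14 with HDL and from 7.12 to 8.45 with PBS in WT arteries, with a summed macrophage marker signal of 12.08 to 13.73 and 10.38 to 12.56 in the same groups. WT HDL replicates 1 and 3, the arrays of low signal, were also low in summed smooth muscle markers (12.57 and 12.09, against 14.39 to 15.51 with PBS), fibroblast markers (10.26 and 9.2, against 12.37 to 13.39) and endothelial markers (8.79 and 7.63, against 10.21 to 11.53). The part of these markers in the Ptx3, C1qa and C1qb values was not tested. C5ar1 differed by 0.59 ± 0.39 there (adjusted p = 0.349), and C3ar1 was not detected on any artery array and was not tested.

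By limma, 0 of 7 members tested passed in each of the 5 artery comparisons, with 1 at an unadjusted p under 0.05 between the labels after HDL, Saa3 (-0.70 ± 0.28, adjusted p = 0.598), and 0 in the other 4. Before normalization the mean Saa3 signal after HDL went the other way, at 804 in arteries labelled ATF3-/- and 580 in WT arteries. Of the 15868 probes tested 0% passed, with 103 to 3568 at an unadjusted p under 0.05. This count depends on the scaling for HDL against PBS in WT arteries: 6107 probes were lower and 17 higher with median scaling, and 6574 were lower in the deposited matrix values, which for artery are log2 signals that were not normalized. The median of all probes was -0.96 and -0.53 in these settings, and no member passed in either. Leaving out WT HDL replicate 2, the only WT HDL array of ordinary signal, 2 members passed between HDL and PBS in WT arteries, Ptx3 (-3.37, adjusted p = 0.0391) and C1qa (1.76, adjusted p = 0.0332). That fit keeps only the 2 arrays of low signal for HDL in WT arteries. The share of all probes that passed in it was not counted, so nothing particular to these members is drawn from it. Leaving out the 2 arrays of low signal leaves 1 WT HDL array, so no call is drawn from that choice. Without the 2 arrays that went against their label 0 members passed. Both choices were made after the data had been seen. The 95% intervals, such as -2.28 to 0.81 for Lcn2 in WT arteries, leave room for differences of several fold.

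**Figure D5:**
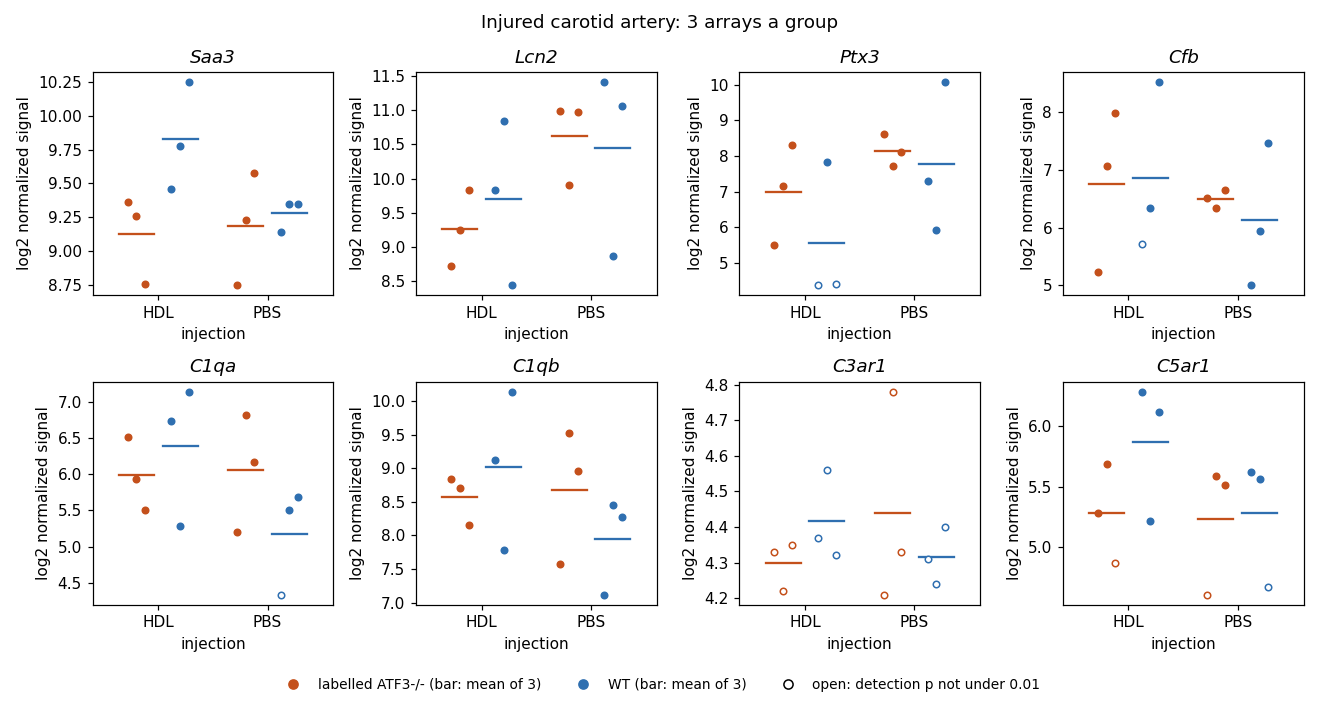
Log2 normalized signal (vertical axis) of the 8 members in injured carotid artery after HDL or PBS (horizontal axis), with orange for arteries labelled ATF3-/- and blue for WT; points are arrays, bars are means of 3, and open points were not detected. The points of the groups overlap for most members, and the 2 WT HDL arrays of low signal have open Ptx3 points near 4.4.

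Other genes of these pathways were followed as lists. Of 26 further acute phase genes with a probe, 7 were tested in the first experiment and 8 in the second. With CpG, 5 of 7 rose in the first experiment and 6 of 8 in each label of the second, and with P3C 6 of 8 in each label, and none fell. The share of all probes that rose was 12.2% with CpG in the first experiment, and 20.5% with CpG and 20.2% with P3C in cells labelled ATF3-/- and 20.3% and 20.5% in WT cells of the second. The list median was 1.31 with CpG in the first experiment, against -0.04 over all probes, and 1.33 in cells labelled ATF3-/- and 1.58 in WT cells of the second, against -0.05. The genes that rose most were Cp, the copper carrier ceruloplasmin (3.82 ± 0.18 in the first experiment), Il1rn, which encodes the antagonist of interleukin-1 receptors (3.57 ± 0.17), Hp, the haemoglobin binder haptoglobin (2.37 ± 0.18), and Slc39a14, a zinc and iron importer (at least 1.95-fold).

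The 13 regulators of acute phase genes that were tested rose in 7 cases with CpG in the first experiment and in 9 with CpG in each label of the second, and 1 fell in the first experiment, 3 in cells labelled ATF3-/- and 1 in WT cells. The median of these regulators was 1.33 in the first experiment, 2.04 in cells labelled ATF3-/- and 1.62 in WT cells, against -0.04, -0.05 and -0.05 over all probes, and the shares of all probes that rose are those just given. The largest rises in the first experiment were those of Socs3, whose protein dampens cytokine signalling (6.33 ± 0.16), Il1b (5.36 ± 0.29), Tnf (5.27 ± 0.26) and Nfkbiz, a nuclear cofactor of NF-kB (2.75 ± 0.17). Among complement regulators, Cd55, which breaks up the convertases on the cell surface, rose in all ligand comparisons: by 2.04 ± 0.20 in the first experiment, by 2.78 ± 0.21 with CpG and 2.70 ± 0.21 with P3C in cells labelled ATF3-/-, and by 2.38 ± 0.21 with each ligand in WT cells. Cd59a, which blocks the membrane attack complex, fell in the same 5 comparisons, by 0.49 to 0.87.

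HDL before ligand lowered Cd55, Cp and Hp in each of its 5 comparisons and raised the metallothionein gene Mt1 in each. In the first experiment the values were -1.48 ± 0.20 for Cd55, -1.42 ± 0.18 for Cp, -1.05 ± 0.18 for Hp and 0.77 ± 0.14 for Mt1. Most acute phase genes did not pass: in each comparison 1 was higher and 2 were lower, of 7 tested in the first experiment and 8 in the second. The list medians ran from -0.21 to 0.22. Of all probes 6.99% passed in the first experiment. In the second, 15.7% passed with CpG and 14.7% with P3C in cells labelled ATF3-/-, and 17.6% and 14.9% in WT cells. Cfp, the gene of properdin, which stabilises the alternative pathway convertase, fell with HDL before ligand in the first experiment (-0.59 ± 0.13) and in WT cells of the second with CpG (-0.41 ± 0.11) and P3C (-0.46 ± 0.11). With HDL alone, Il1b (3.10 ± 0.26), Socs3 (2.19 ± 0.39), Il1rn (1.72 ± 0.19), Tnf (1.12 ± 0.24) and Mt1 (0.88 ± 0.11) rose in WT cells of the second experiment, as Saa3 did. In the first experiment HDL alone raised Il1rn (0.90 ± 0.17) and Mt1 (0.76 ± 0.14), and lowered Tnf (-1.10 ± 0.26) and Nfkbiz (-2.85 ± 0.17). In cells labelled ATF3-/- HDL alone raised 3 and lowered 1 of 8 acute phase genes. Of 13 regulators it raised 2 and lowered 2 there. Of all probes 18.8% passed there, 11.7% in WT cells and 5.54% in the first experiment. The HDL effect was lower in cells labelled ATF3-/- for 2 of 13 regulators, where 0.873% of all probes passed.

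Among the classical pathway genes, C2, whose protein joins C4b in a convertase, was higher in cells labelled ATF3-/- in all 6 treatments. It was not above background in the WT groups, so it was tested only because arrays labelled ATF3-/- detected it and adds no support. The bounds ran from at least 2.01-fold with CpG to at least 3.3-fold with HDL. Fcna, which encodes a ficolin of the lectin pathway, was higher in 4 of the 6 treatments, by 0.62 to 0.72, and Vsig4, a macrophage receptor for C3b, in 5 of 6, by 0.95 to 1.54 as fitted. The share of all probes that passed as higher in these comparisons ran from 3.82% with HDL to 8.4% with CpG. C2 and Cfb are neighbouring genes in the mouse genome.

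Across the 12 group means of the second experiment, the genes whose pattern was most like that of Saa3 among 8970 genes tested were Socs3 (Pearson r = 0.996), Sod2 (0.994), Acod1 (0.991), Exoc3l4 (0.991) and Reps1 (0.989). For Lcn2 they were Flvcr2 (0.991), Urah (0.988) and Rin3 (0.988), and for Cfb Mier3 (0.969), Ccl2 (0.964) and Ccl7 (0.963). For C1qa they were Ly6e (0.971), H2-M3 (0.964) and Irf7 (0.959), and for C1qb Rab24 (0.916), Sp110 (0.913) and Mov10 (0.909). Those most like C5ar1 were Lcp1 (0.95), Dennd4b (0.939) and Tfe3 (0.909), and the patterns of Ptx3 and C3ar1 had no gene above 0.897 and 0.89. Among the members themselves Saa3 and Lcn2 had r = 0.97 and C1qa and C1qb r = 0.87, while Saa3 and C1qa had r = -0.23. The 12 points share 2 labels and their ligand groups, so these values describe the pattern and carry no test.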

How the data were processed

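The deposited tables hold bead summary intensity values that were not normalized, each with its detection p-value, per the file headers, and the deposited series matrix holds processed intensities of the macrophage arrays and log2 values of the artery arrays' signals, which were not normalized, judged from the values. Partek is the 1 tool listed, per the submitters' processing notes, with no version, and further steps are not given in the sources used here. From the intensities, limma 3.58.1 in R 4.3.3 was used for background correction inferred from the detection p-values (neqc, offset 16), quantile normalization and log2, for each experiment alone. Probes were tested if their detection p was under 0.01 on at least 3 arrays, with 1 mean per group, empirical Bayes moderation and Benjamini-Hochberg adjustment over all probes tested (threshold 0.05). All adjusted p come from these limma fits, and SEs rest on n = 3 arrays a group. Members are counted by their brightest probe. A group with no array above detection has only a bound. The number of arrays limits the precision. All members are reported, and other genes were named from lists where they passed, or by likeness of group means. The members and lists were chosen with earlier results of these data known. The fit was tested on simulated data. Alternatives covered background correction, scaling, the matrix values, the filter, the probe choice, the chip, the model and each array left out. Figures were drawn with matplotlib 3.10.9.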

Additional observations from a re-analysis of the deposited data

Results flagged for a closer look

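In 4 cases an effect differed between groups by the test of the difference itself. For Saa3 in WT cells of the second experiment, the HDL effect was lower with CpG than without by -1.99 ± 0.52 on the log2 scale (limma, adjusted p = 0.0276) and lower with P3C than without by -2.29 ± 0.52 (adjusted p = 0.0101). For Lcn2, the response to CpG was higher in cells labelled ATF3-/- than in WT cells by 1.69 ± 0.33 (adjusted p = 0.00288) and that to P3C by 1.51 ± 0.33 (adjusted p = 0.0105), with Lcn2 not above background in the control cells labelled ATF3-/-. All 4 were lost under median scaling.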

How the results depend on the processing

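Over the members' single results, 4429 alternative values kept their side of the threshold, 80 lost the call, 45 gained it and 0 changed sign while called. Values that were not called in either fit count as kept whatever their sign. Of calls among members, HDL effects in the second experiment numbered 6, against 2 with median scaling and 11 with only the groups compared, and genotype labels numbered 18, against 8 with median scaling. Artery calls numbered 0, and 0 to 2 with 1 array left out. The counts for the first experiment and the ligand responses stayed within 1.5 times under the alternatives run. Median scaling moved the share of calls that were higher, given here first under median scaling and then under quantile normalization. In the first experiment it was 26.3% and 43.8% for CpG, 65.5% and 43.9% for HDL, and 67.5% and 52.6% for HDL before CpG. In cells labelled ATF3-/- it was 29.4% and 44.1% for CpG, 27% and 46% for P3C, and 67.8% and 54.7% for HDL before CpG. In WT cells it was 29.5% and 44.4% for CpG, 67.9% and 48.9% for HDL before CpG, and 67.2% and 52.4% for HDL before P3C. Between the labels it was 36.1% and 49.3% in control cells, 23.6% and 43.8% with CpG, 12.7% and 47% with P3C, 28.7% and 46.7% with HDL, 26.9% and 46.6% with HDL and CpG, and 10.6% and 46.6% with HDL and P3C. For CpG against P3C it was 86.4% and 67.3% in cells labelled ATF3-/- and 100% and 85.4% in WT cells. For the label differences in effect it was 10% and 34.9% for P3C, 0% and 58.5% for HDL before CpG, and 0% and 50% for HDL before P3C. The cause was not tested. Median scaling put the median of all probes at -0.96 for HDL in WT arteries, with 6107 probes lower and 17 higher. The correlation of arrays within a chip was 0.391, 0.0944 and -0.0377 in the 3 experiments. No paired analysis was possible because replicate numbers were given in accession order and pair no arrays. The 2 alternatives that leave out artery arrays were chosen after seeing the data. Ptx3, Cfb and C3ar1 lie close to the detection limit, which limits their values.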
